A study of Mus musculus with 12 samples.

Results

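The genes described here encode the Fc gamma receptors of BV2 microglia, the surface receptors through which these cells bind IgG. They are Fcgr1, Fcgr3, Fcgr4 and Fcgr2b, with Fcer1g, the signalling chain that the activating receptors share. They were taken by symbol from count tables of 22935 genes, and all 5 had a row and passed the count filter that left 14146 genes for testing. BV2 is an immortalised line of mouse microglia, and the study asked, as its title states, about microglia and the C3/C3aR pathway after subarachnoid haemorrhage. All 9 libraries came from cells given 10 µM oxyhaemoglobin (oxy-Hb), the oxygenated haemoglobin that red cells release into the subarachnoid space. In 3 of them C3a, the complement fragment that activates the receptor C3aR, was given as well, at a labelled 20 ug/ul whose unit is in doubt, being very high for a peptide dose. Another 3 received C3aRA, an abbreviation left unexplained in the labels, at 50 µM beside oxy-Hb, and 3 had oxy-Hb alone. PBS samples were not analysed here, and no value measures the response to oxy-Hb itself. The line carries no label for genotype or clone, and no exposure time is given in the sources used here.

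Fc gamma receptors tell a phagocyte that a target is coated with IgG. FcγRI (Fcgr1) binds monomeric IgG with high affinity, whereas FcγRIII (Fcgr3) and FcγRIV (Fcgr4) bind immune complexes. All of these signal through the common gamma chain (Fcer1g), whose immunoreceptor tyrosine-based activation motif (ITAM) is phosphorylated by Src kinases and recruits the kinase Syk. FcγRIIB (Fcgr2b) carries the opposite signal in its own tail, an inhibitory motif (ITIM) that recruits the lipid phosphatase SHIP. In microglia this set of receptors is known for the uptake of opsonised material and for the response to antibody, and interferon gamma is known to raise FcγRI in macrophages.

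The coding sequences show this division of labour. The lines below give the codons of both motifs, with the tyrosine codons and the codons of the leucine or isoleucine position after them in capitals, from the GENCODE transcripts of GRCm38. An ITAM match was found once in the 86 codons of Fcer1g, at chr1:171229889-171230072 on the minus strand across an intron, and not in the coding sequences of the other 4 genes. The ITIM of Fcgr2b lies at chr1:170961071-170961088 on the minus strand.
Fcer1g ITAM: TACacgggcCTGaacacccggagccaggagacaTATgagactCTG
Fcgr2b ITIM: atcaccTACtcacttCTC

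The activating Fcgr3 and the inhibitory Fcgr2b are neighbours and close relatives, which matters for how their reads are counted. On GRCm38, Fcgr2b (ENSMUSG00000026656, chr1:170958617-170976547, minus strand), Fcgr4 (ENSMUSG00000059089, chr1:171018920-171029761, plus strand), Fcgr3 (ENSMUSG00000059498, chr1:171051174-171064935, minus strand) and Fcer1g (ENSMUSG00000058715, chr1:171229572-171234365, minus strand) lie within 275.7 kb of chromosome 1. Fcgr1 (ENSMUSG00000015947, chr3:96282909-96293969, minus strand) lies apart from them on chromosome 3. The coding sequences of Fcgr3 and Fcgr2b were identical at 86.7% of 782 aligned bases, against 64.1% to 67.3% for the other pairs among the 4 receptor genes. Their longest identical run is 129 bases, printed below to show how far a read can match both genes. In Fcgr2b it runs over chr1:170966674-170968081 and in Fcgr3 over chr1:171054167-171057792, in each gene across an intron and on the minus strand.
Fcgr2b and Fcgr3 shared run: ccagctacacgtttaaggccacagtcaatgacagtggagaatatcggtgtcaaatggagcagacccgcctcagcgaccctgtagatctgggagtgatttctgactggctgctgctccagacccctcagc

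Of all stretches of 50 bases in Fcgr3 transcripts, 10.2% also occurred in Fcgr2b. Of those in Fcgr2b, 10.7% occurred in any other gene, and 4.48% in Fcgr3. Fcgr1, Fcgr4 and Fcer1g shared none with any other gene. How the authors assigned reads that match more than one gene is not given in the sources used here, so the split between Fcgr3 and Fcgr2b is less certain than the other counts. An antisense gene, Gm38204, overlaps Fcgr2b with 2 to 21 counts per library, and the strand setting of the counting is not given either.

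The 3 activating receptor genes also shared a feature of the promoter windows searched. Promoter windows from RefSeq (GRCm38.p6, 300 bases around each start) matched all 5 symbols. Those of Fcgr3 (chr1:171059354-171059653) and Fcgr2b (chr1:170976022-170976321) lie inside the gene spans given above. The 5′ ends of these 2 spans were not searched, so presence or absence of a match holds for the windows used. They were searched on both strands for GAGGAA, the core bound by the myeloid factor PU.1, for TTCNNNGAA, the site of STAT factors, and for the interferon-stimulated response element. GAGGAA occurred in the windows of Fcgr1, Fcgr3 and Fcgr4 and not in those of Fcer1g and Fcgr2b, while 28.3% of all 32851 promoter windows held it. TTCNNNGAA occurred in Fcgr1 alone among the 5 and in 8.30% of all windows, and the interferon-stimulated response element in Fcgr4 alone and in 3.44% of all windows. No match overlapped another. The stretches that hold the matches are shown with the matches in capitals, read 5′ to 3′ on the gene's strand, so that GAGGAA, which lay on the other strand in each, reads as its complement. They are chr3:96294014-96294083 (minus strand) for Fcgr1, chr1:171059404-171059443 (minus strand) for Fcgr3 and chr1:171018848-171018914 (plus strand) for Fcgr4. A match describes letters and not bound protein.
Fcgr1 promoter stretch: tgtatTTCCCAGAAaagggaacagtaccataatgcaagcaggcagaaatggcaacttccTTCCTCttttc
Fcgr3 promoter stretch: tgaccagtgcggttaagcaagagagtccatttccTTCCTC
Fcgr4 promoter stretch: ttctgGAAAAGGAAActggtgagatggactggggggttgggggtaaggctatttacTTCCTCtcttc

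Library totals ran from 12934794 to 20479002 counts, and 3 counts, the floor for a gene with none, equalled 0.146 to 0.232 CPM, the count of a gene scaled to a common library size. This floor covers counting error alone. Whether replicates came from separate cultures is not labelled, and the p-values cover the spread between these libraries, possibly a technical one. Replicate 2 of oxy-Hb with C3a stood apart: it scored -76.3 on the first principal component, where the remaining 8 scored -10.8 to 23.8, and 56630 CPM of it were ribosomal protein transcripts, where the remaining 8 had 36446 to 41610 CPM. It was kept, and the fold changes and calls that involve C3a are also given without it for the 5 genes, and as counts for the lists of other genes. The labelled cell type was checked against 12 microglia markers, all of which had rows and passed the filter. Their sum was 2120 to 2270 CPM with C3a, 2030 to 2140 CPM with C3aRA and 1940 to 2070 CPM with oxy-Hb alone. The markers P2ry12, Tmem119 and Aif1 were nevertheless low, at means of 1.70, 1.95 and 2.17 CPM with C3a and of 2.56, 2.04 and 1.80 CPM with oxy-Hb alone. Markers of other cells that bear Fc receptors were low: none of 6 NK cell markers had a row, and mast cell and basophil markers summed to at most 1.11 CPM and B cell markers to at most 0.64 CPM in any library. Markers of astrocytes, neurons and red cells summed to at most 0.698, 0.818 and 1.62 CPM in any library, and those of oligodendrocytes to 8.12 to 12 CPM.

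All 5 genes were expressed in every library, and the common gamma chain was the most abundant of them. Averaged over the 9 libraries, Fcer1g stood at the 96.6th percentile of the tested genes, Fcgr3 at the 92.8th, Fcgr2b at the 90.8th, Fcgr1 at the 75th and Fcgr4 at the 41.4th. Levels of different genes can be compared only per length. In CPM per kilobase of all annotated exons, Fcer1g ranged from 313 to 531 with C3a, from 324 to 358 with C3aRA and from 293 to 351 with oxy-Hb alone. Fcgr3 followed at 103 to 173 with C3a, 100.1 to 105 with C3aRA and 94.1 to 102 with oxy-Hb alone. Fcgr4 was lowest on this scale, at 12.1 to 18.4, 7.90 to 9.82 and 9.26 to 10.5 in the same order of groups. These 3 genes kept their places in every library.

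The order of Fcgr1 and Fcgr2b between them depended on the group and on the length used. Per kilobase of exons, Fcgr1 was at 29.5 to 40.3 and Fcgr2b at 21.6 to 32.7 with C3a, ranges that overlap, although Fcgr1 was the higher within each of the 3 C3a libraries. With C3aRA, Fcgr1 was at 19.7 to 22.9 and Fcgr2b at 27.8 to 31.8. With oxy-Hb alone, Fcgr1 was at 20.6 to 25.0 and Fcgr2b at 25.2 to 29.5, so that Fcgr2b was the higher in both groups without C3a. When the length of the first protein-coding transcript was used instead, a choice made after seeing the data, Fcgr2b was at 35.3 to 53.5 with C3a and its mean stood above that of Fcgr1 in all 3 groups.

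**Figure D1:**
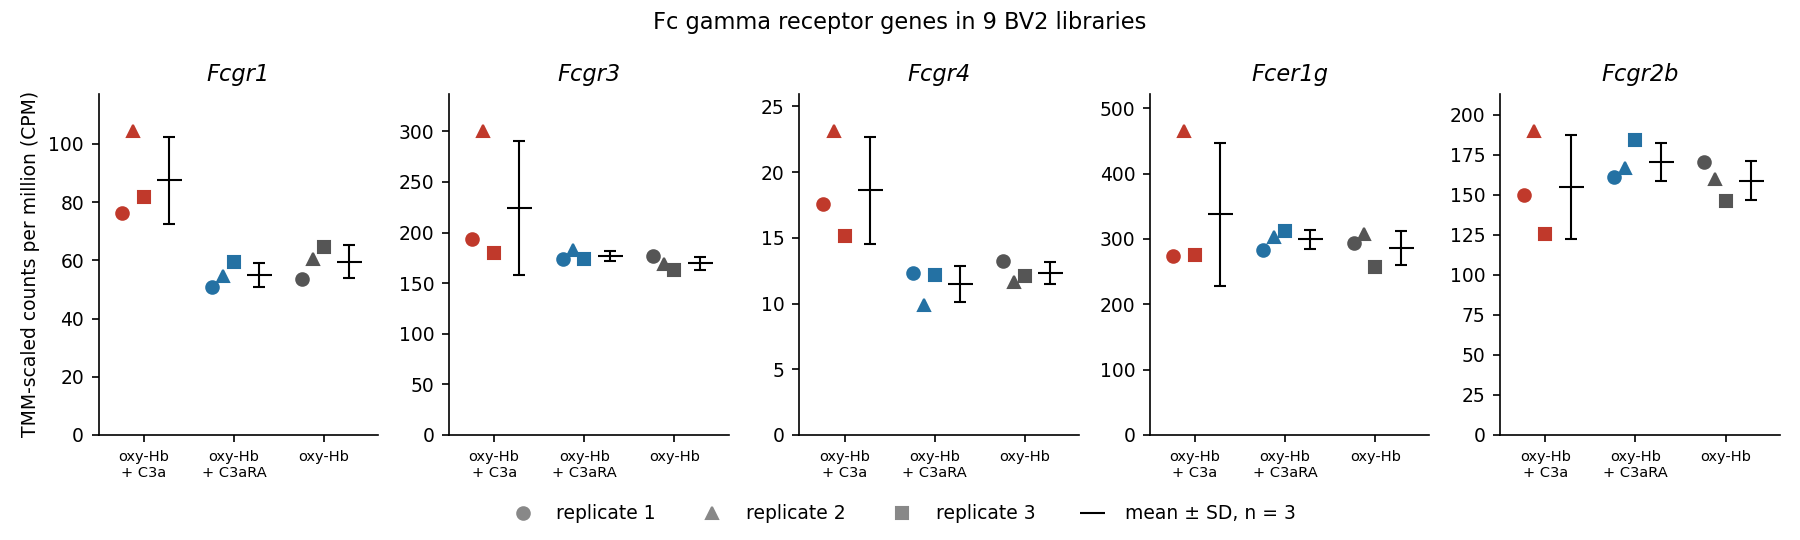
Scaled CPM of the 5 genes (linear axes from 0) in 3 libraries each of oxy-Hb with C3a, oxy-Hb with C3aRA and oxy-Hb alone; points are libraries with a symbol per replicate, bars are mean ± SD. With C3a, Fcgr1, Fcgr3 and Fcgr4 lie above every oxy-Hb library, and replicate 2 (triangle) is the highest C3a library for all 5 genes.

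When C3a was added to oxy-Hb, the high-affinity receptor gene Fcgr1 rose. Scaled to library size by the TMM method of edgeR, Fcgr1 was at 76.3, 104 and 81.8 CPM in the 3 libraries of oxy-Hb with C3a, against 53.4, 60.4 and 64.7 CPM in those of oxy-Hb alone. Every C3a library lay above every oxy-Hb library. Means were 87.5 ± 14.8 and 59.5 ± 5.69 CPM (SD, n = 3 each), and the log2 fold change was 0.56 ± 0.13 (SE; 95% interval 0.27 to 0.84; 1.47-fold). The adjusted p was 0.0327 by the quasi-likelihood test of edgeR, fitted on all 9 libraries and adjusted by Benjamini and Hochberg over all genes tested. The authors' deposited table gives 0.57 with an adjusted p of 0.0299 for this gene. The rise was 0.40 without C3a replicate 2, with an adjusted p of 0.0107. The call was lost under total count scaling (adjusted p = 0.0524), in a fit of these 2 groups alone (adjusted p = 0.119), and when any 1 library of oxy-Hb alone or of oxy-Hb with C3aRA was left out, with adjusted p from 0.0553 to 0.192 and log2 fold changes from 0.49 to 0.63.

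The receptors for immune complexes were also highest with C3a, but neither passed the test. Fcgr4 was at 17.6, 23.1 and 15.2 CPM with C3a, against 13.2, 11.6 and 12.1 CPM with oxy-Hb alone, again without overlap. Its log2 fold change of 0.60 ± 0.18 was as large as that of Fcgr1 and had an adjusted p of 0.0730. Of 23 alternative fits, 2 called it: edgeR without a filter on low counts (adjusted p = 0.0431) and the Wald test of DESeq2 (adjusted p = 0.0289). These 2 fits called 4.58% and 9.56% of all genes, beside 3.94% in the main fit. None of the 9 fits that left out 1 library called it (edgeR adjusted p from 0.0514 to 0.209). Its log2 fold change was 0.41 without C3a replicate 2, with an adjusted p of 0.145.

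Fcgr3, the most abundant of the ligand-binding receptors per length, depended strongly on that library. It was at 194, 299.8 and 179 CPM with C3a, against 176, 169 and 163 CPM with oxy-Hb alone. The groups did not overlap, yet the lowest C3a library, at 179 CPM, lay close to the highest oxy-Hb library, at 176 CPM. The log2 fold change was 0.40 ± 0.15 (adjusted p = 0.136), and 0.13 without C3a replicate 2 (adjusted p = 0.313).

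The common gamma chain and the inhibitory receptor gave no call, and their groups overlapped. Fcer1g was at 274, 464 and 276 CPM with C3a, against 294, 307 and 256 CPM with oxy-Hb alone, so that only replicate 2 was outside the range of the oxy-Hb libraries. The log2 fold change of Fcer1g was 0.24 ± 0.17 (95% interval -0.13 to 0.61; adjusted p = 0.408), and it was -0.06 without that library. Fcgr2b was at 150, 190 and 125 CPM with C3a, against 171, 160 and 146 CPM with oxy-Hb alone. Its log2 fold change was -0.03 ± 0.13, with a 95% interval from -0.32 to 0.25 and an adjusted p of 0.902. It was -0.21 without C3a replicate 2 (adjusted p = 0.133).

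For C3a against oxy-Hb, 1 of the 5 genes was thus called, where 3.94% of all tested genes were. The groups did not overlap for 3 of the 5, Fcgr1, Fcgr3 and Fcgr4, each higher with C3a, where they did not overlap for 27.8% of all genes in either direction. Without C3a replicate 2, 1 of the 5 was called against 9.55% of all genes. The median log2 fold change of the 5 genes was 0.40, beside 0.002 over all tested genes, and it was 0.13 without that library, both values being those of Fcgr3. In these bulk libraries a change in RNA per cell and a change in the share of cells expressing a gene cannot be told apart.

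**Figure D2:**
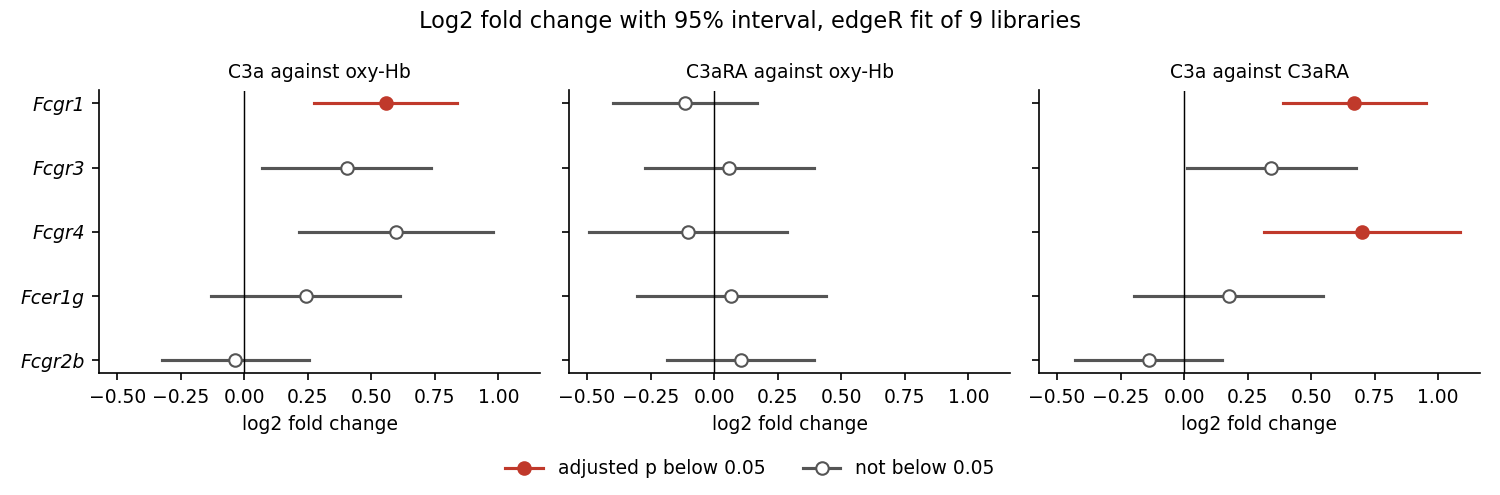
Log2 fold change (points) with 95% interval (lines) of each gene in C3a against oxy-Hb, C3aRA against oxy-Hb and C3a against C3aRA, from 1 edgeR fit of 9 libraries. Filled red points passed an adjusted p of 0.05: Fcgr1 in the left and right panels and Fcgr4 in the right.

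C3aRA added to oxy-Hb gave no call among the 5 genes. Fcgr1 was at 51.0, 54.6 and 59.4 CPM with C3aRA, against the 53.4 to 64.7 CPM of oxy-Hb alone, and Fcgr4 was at 12.3, 9.92 and 12.2 CPM, against 11.6 to 13.2 CPM. Fcgr3 was at 174, 183 and 174 CPM, against 163 to 176 CPM, Fcer1g at 283, 302 and 313 CPM, against 256 to 307 CPM, and Fcgr2b at 161, 167 and 184 CPM, against 146 to 171 CPM. The ranges overlapped for all 5. Log2 fold changes were -0.11 for Fcgr1, -0.10 for Fcgr4, 0.06 for Fcgr3, 0.07 for Fcer1g and 0.10 for Fcgr2b. Their adjusted p ran from 0.867 to 0.951 by edgeR, and the widest 95% interval, that of Fcgr4, ran from -0.49 to 0.29. These p-values and intervals rest on an estimate of the spread shared with the C3a libraries. Without C3a replicate 2 the edgeR adjusted p of the 5 genes ran from 0.537 to 0.809. In the authors' deposited table the adjusted p of the 5 genes run from 0.490 to 0.831.

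None of the 5 was called for C3aRA against oxy-Hb, and neither was any other gene (0%). At an unadjusted p below 0.05 there were 1153 genes and none of the 5, while DESeq2 called 11 genes and limma-voom 0. Other fits called more genes, though again none of the 5. The edgeR fit of these 2 groups alone called 603 genes (4.43%), and limma-voom with library quality weights called 401 (2.83%). The groups overlapped for all 5 genes and did not overlap for 22.9% of all genes. Without C3a replicate 2, which enters this fit through the shared estimate of the spread, 3.25% of all genes were called and again none of the 5.

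Fcgr1 and Fcgr4 were higher with C3a than with C3aRA. For Fcgr1 the 76.3 to 104 CPM of the C3a libraries stood against 51.0 to 59.4 CPM with C3aRA, and for Fcgr4 the 15.2 to 23.1 CPM stood against 9.92 to 12.3 CPM. Neither gene's groups overlapped. The log2 fold change of Fcgr1 was 0.67 ± 0.13 (1.59-fold; edgeR adjusted p = 0.0142), and that of Fcgr4 was 0.70 ± 0.18 (1.62-fold; adjusted p = 0.0365). Without C3a replicate 2, Fcgr1 was at 0.52 (adjusted p = 0.000981) and Fcgr4 at 0.51 (adjusted p = 0.0550), so that the call of Fcgr4 ended. Leaving out any 1 library of C3aRA or of oxy-Hb alone also ended the call of Fcgr4 (adjusted p from 0.0570 to 0.145). Leaving out C3aRA replicate 1 or 2 ended that of Fcgr1 (adjusted p = 0.0952 and 0.0594), and a fit of these 2 groups alone ended both calls (0.0619 for Fcgr1 and 0.0976 for Fcgr4).

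The other 3 genes did not pass in this comparison with all 9 libraries. Fcgr3 had a log2 fold change of 0.34 ± 0.15 (adjusted p = 0.191) and 0.07 without C3a replicate 2. The gamma chain gene Fcer1g had 0.17 ± 0.17 (adjusted p = 0.570) and -0.13 without that library. Inhibitory Fcgr2b had -0.14 ± 0.13 (adjusted p = 0.564). Without C3a replicate 2, Fcgr2b passed as lower with C3a (log2 fold change -0.32, adjusted p = 0.0167), with 150 and 125 CPM in the remaining C3a libraries, against 161, 167 and 184 CPM with C3aRA.

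For C3a against C3aRA, 2 of the 5 genes were called, where 6.19% of all tested genes were, and for the same 2 the groups did not overlap, where they did not for 28.8% of all genes. Without C3a replicate 2 the count was again 2, Fcgr1 higher and Fcgr2b lower, where 12.5% of all genes were called. C3a libraries serve in both of the comparisons that called Fcgr1, so these are not independent. The rows of Fcgr2b and Fcgr3 were also summed, which removes the choice between these 2 genes for a shared read given to only 1 of them. Shared reads that the counting dropped, or counted for both genes, are not put right by the sum. Its log2 fold changes were 0.21 ± 0.14 for C3a against oxy-Hb and 0.08 ± 0.14 for C3aRA against oxy-Hb. For C3a against C3aRA the value was 0.13 ± 0.14. None passed (adjusted p = 0.390, 0.919 and 0.623).

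**Figure D3:**
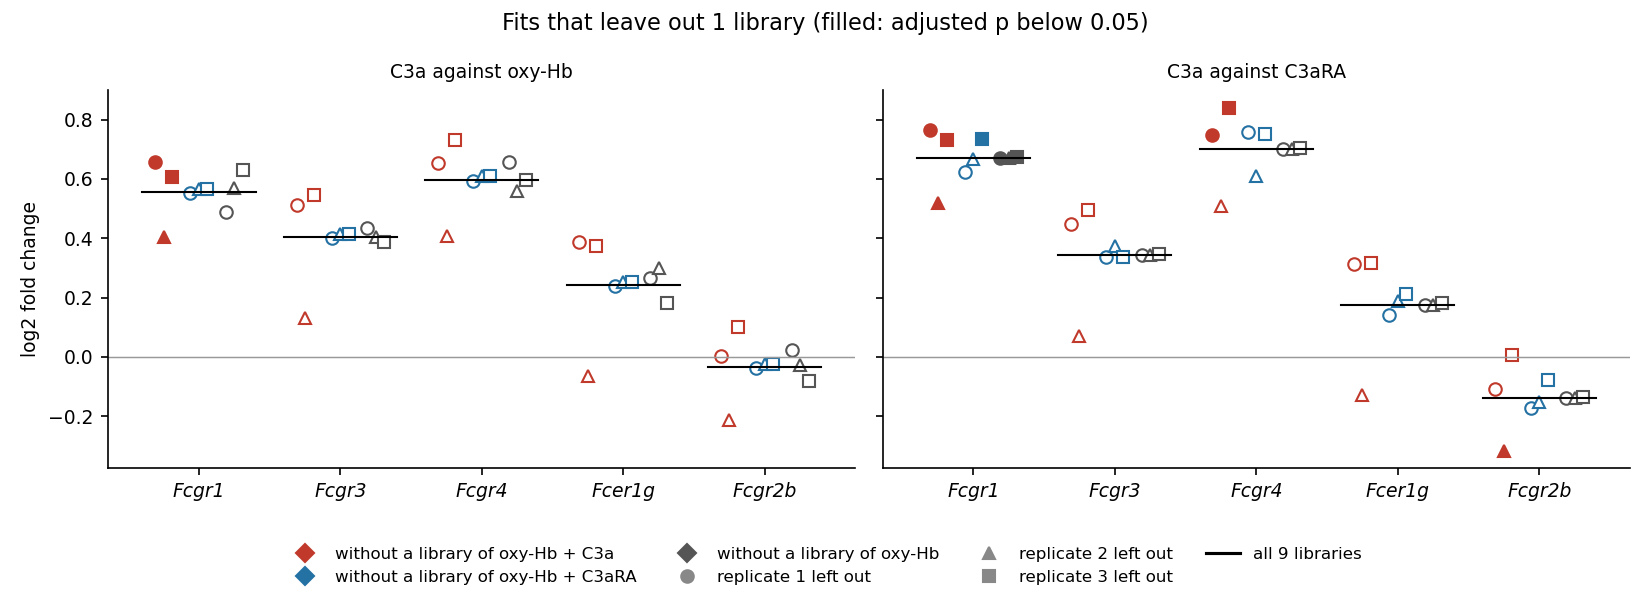
Log2 fold change of each gene when 1 of the 9 libraries is left out (symbols by replicate, colours by group, filled where adjusted p is below 0.05), with the value from all 9 libraries as a line. Leaving out C3a replicate 2 (red triangle) gives the lowest value of each gene in both panels, and Fcgr1 stays between 0.40 and 0.77 throughout.

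The balance between activating and inhibitory receptor transcripts does not depend on the scaling of a library, because both are read in the same one. It was described without a test. The 3 activating receptor genes together, each per kilobase of exons and divided by Fcgr2b, gave ratios of 5.98, 7.07 and 6.79 in the libraries of oxy-Hb with C3a, 4.66, 4.66 and 4.18 in those with C3aRA, and 4.51, 4.72 and 5.10 in those of oxy-Hb alone. All 3 C3a libraries exceeded all 6 others, replicate 2 being the highest by a small margin only. The means were 6.62 ± 0.564 with C3a, 4.50 ± 0.278 with C3aRA and 4.78 ± 0.303 with oxy-Hb alone (SD, n = 3 each). Fcgr3 was the largest part of the sum, at a mean of 129 CPM per kilobase with C3a, beside 33.8 for Fcgr1 and 14.8 for Fcgr4. The combined ratio therefore rests largely on the uncertain split of reads between Fcgr3 and Fcgr2b. How often ratios of other genes separate these groups was not tested.

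Each activating receptor taken alone showed the same order. The count ratio of Fcgr1 to Fcgr2b was 0.509, 0.550 and 0.653 with C3a, 0.316, 0.327 and 0.323 with C3aRA and 0.313, 0.378 and 0.443 with oxy-Hb alone. That of Fcgr4 to Fcgr2b was 0.117, 0.122 and 0.121 with C3a, 0.0765, 0.0595 and 0.0663 with C3aRA and 0.0777, 0.0728 and 0.0827 with oxy-Hb alone. That of Fcgr3 to Fcgr2b, which rests on the uncertain split of reads, was 1.29, 1.58 and 1.43 with C3a, 1.08, 1.10 and 0.945 with C3aRA and 1.03, 1.06 and 1.12 with oxy-Hb alone. In each ratio the C3a libraries lay above the other 6, and in the ratio of Fcgr4 they differed from each other by little. Relative to the gamma chain the separation was weaker: the ratio of Fcgr1 to Fcer1g was 0.279, 0.225 and 0.297 with C3a, 0.180, 0.181 and 0.190 with C3aRA and 0.182, 0.197 and 0.252 with oxy-Hb alone, and C3a overlapped oxy-Hb. Fcgr3 to Fcer1g was 0.708, 0.646 and 0.650 with C3a, 0.614, 0.604 and 0.556 with C3aRA and 0.599, 0.552 and 0.637 with oxy-Hb alone, without overlap but with a narrow gap.

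**Figure D4:**
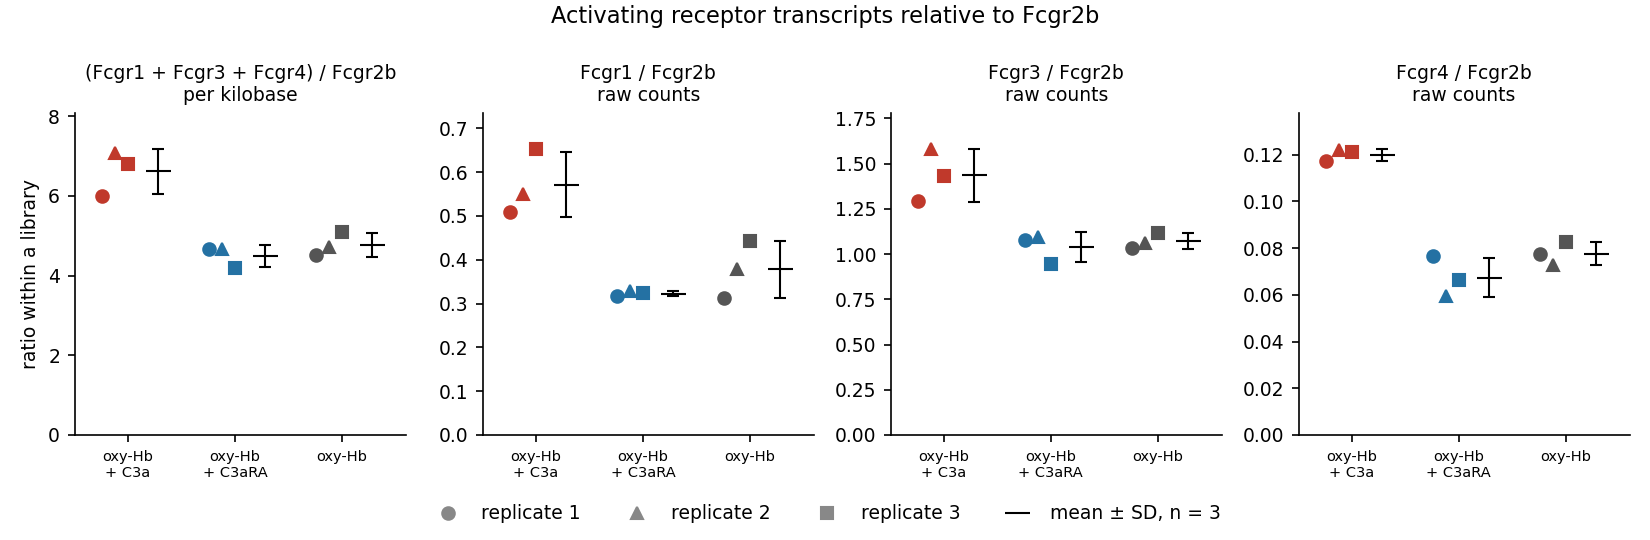
Ratios within each library (linear axes from 0) of the 3 activating receptor genes together, per kilobase, and of Fcgr1, Fcgr3 and Fcgr4 singly, as raw counts, to Fcgr2b; points are libraries, bars mean ± SD. In each panel the 3 libraries of oxy-Hb with C3a lie above the 6 others.

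Few genes in a list of kinases and adaptors of these receptors passed the test with all 9 libraries, each lower with C3a. In the same fit, the calls among all tested genes were 128 higher and 430 lower against oxy-Hb. Against C3aRA they were 406 higher and 470 lower. Of 25 kinases and adaptors that act on a phosphorylated ITAM, 0 were higher and 1 lower with C3a than with oxy-Hb alone, with a median log2 fold change of -0.03. That is 4.0% of the list, beside the 3.94% of all tested genes. The gene that fell was Vav2, a guanine nucleotide exchange factor, at 14.1 ± 2.39 CPM with C3a and 24.2 ± 1.37 CPM with oxy-Hb alone (log2 fold change -0.78 ± 0.15, edgeR adjusted p = 0.0114). Syk, the kinase that binds the phosphorylated ITAM, gave -0.09 (adjusted p = 0.676); it was chosen for its role after its values were seen. Against C3aRA, 0 were higher and 3 lower, 12% of the list beside 6.19% of all genes, with a median of -0.08: Vav2 at -0.72, the scaffold Gab2 at -0.73 and the Ras exchange factor Sos1 at -0.67 (adjusted p = 0.0159, 0.0191 and 0.0473). None of the 25 was called for C3aRA against oxy-Hb with all 9 libraries. Gab2 was at 74.3 CPM with C3a, 88.4 CPM with oxy-Hb alone and 123 CPM with C3aRA. Its log2 fold change was -0.25 for C3a against oxy-Hb and 0.48 for C3aRA against oxy-Hb (edgeR adjusted p = 0.337 and 0.487). Without C3a replicate 2 it was the 1 call of the list for C3aRA against oxy-Hb (edgeR adjusted p = 0.0277), where 3.25% of all genes were called. The counts depended on single libraries. With C3a replicate 2 left out, 1 was higher and 1 lower against oxy-Hb, and 1 higher and 4 lower against C3aRA. The named calls held, with Sos1 at -0.43, and 9.55% and 12.5% of all genes were called. With C3a replicate 1 left out there were 1 higher and 5 lower against oxy-Hb, and 0 higher and 7 lower against C3aRA. In that fit 11.2% and 11.4% of all genes were called. Leaving out any 1 library gave 0 to 6 calls against oxy-Hb and 0 to 7 against C3aRA. The share of all genes called then ran from 0.37% to 11.2% and from 0.361% to 12.5%.

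In a list of inhibitory phosphatases, adaptors and receptors of the same cells, genes changed in both directions. Of its 16 genes, 1 was higher and 3 were lower with C3a than with oxy-Hb alone, with a median of -0.04. That is 25% of the list, beside the 3.94% of all tested genes. Ptpn6, which encodes the tyrosine phosphatase SHP-1, rose by 0.43 ± 0.09 to 219 ± 9.38 CPM with C3a, against 162 ± 7.24 CPM with oxy-Hb alone (adjusted p = 0.0226). Siglec1, a sialic acid-binding lectin that is in the list as a Siglec but has no ITIM of its own, the tyrosine phosphatase gene Ptpn18 and Inppl1, which encodes the lipid phosphatase SHIP2, had log2 fold changes of -0.68, -0.69 and -0.54 (adjusted p = 0.0258, 0.0276 and 0.0375). Inpp5d, the SHIP recruited by FcγRIIB, gave -0.21 (adjusted p = 0.344); it too was chosen after its values were seen. Against C3aRA, 2 were higher and 2 lower, 25% of the list beside 6.19% of all genes. The inhibitory receptor genes Cd300a and Cd300lf were higher with C3a, by 0.68 and 0.44, and Lilrb4a and Inppl1 lower, at -0.70 and -0.55 (adjusted p = 0.0416, 0.0311, 0.0151 and 0.0299). These named calls held without C3a replicate 2, Cd300a then at 0.37. The list then had 4 and 5 calls, where 9.55% and 12.5% of all genes were called. It had 0 to 5 calls in both comparisons when any 1 library was left out, and none for C3aRA against oxy-Hb with all 9 libraries. Without C3a replicate 2 it had 1 call for C3aRA against oxy-Hb, where 3.25% of all genes were called. This was Lilrb4a, higher with C3aRA (0.45, edgeR adjusted p = 0.0218). Lilrb4a was at 632 CPM with C3a, 750 CPM with oxy-Hb alone and 1026 CPM with C3aRA. Cd300lf was at 76.7, 69.0 and 56.3 CPM in the same order.

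The machinery of the phagocytic cup gave few calls. Of 32 actin and membrane genes, none passed for C3a against oxy-Hb, with a median of 0.06, and the lowest p belonged to the phospholipase gene Pla2g6 (log2 fold change -0.61, adjusted p = 0.0523) and to Cdc42, a small GTPase (0.34, adjusted p = 0.0664). Against C3aRA, 1 was lower with C3a, the dynamin gene Dnm2 at -0.43 (adjusted p = 0.0406). Of all genes, 3.94% were called against oxy-Hb and 6.19% against C3aRA, where Dnm2 is 3.1% of the list. Without C3a replicate 2 the same list had 5 and 2 calls, 4 of the 5 higher with C3a, where 9.55% and 12.5% of all genes were called. It had 0 to 6 and 0 to 2 when any 1 library was left out. Pla2g6 and Cdc42 were among the 5 (adjusted p = 0.0360 and 0.0141). The list had no call for C3aRA against oxy-Hb.

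Other Fc receptors were mostly low. Of 13 listed, 8 had rows and 5 passed the count filter, and 1 of these was called, Fcrl1, a receptor-like gene, higher with C3a than with C3aRA at 36.7 ± 2.88 and 26.4 ± 2.31 CPM (0.48, adjusted p = 0.0356). That is 20% of those tested, beside 6.19% of all genes. There were 2 such calls without C3a replicate 2, where 12.5% of all genes were called, and 0 to 2 when any 1 library was left out. Tyrobp, which encodes DAP12, the other ITAM chain of microglia, was at 205 ± 74.1 CPM with C3a and 159 ± 21.4 CPM with oxy-Hb alone, without a call (0.37, adjusted p = 0.266, and 0.03 without C3a replicate 2). Of 14 transcription factors, interferon gamma receptor chains and Janus kinases linked to Fc receptor genes, 1 passed for C3a against oxy-Hb and none in the other comparisons. This was Stat2, which was lower at 16.9 ± 2.41 CPM with C3a, against 27.2 ± 0.753 CPM with oxy-Hb alone (-0.69, adjusted p = 0.0211). This 1 call is 7.1% of the list, beside 3.94% of all tested genes. Without C3a replicate 2 the list had 2 calls against oxy-Hb and 2 against C3aRA, all lower with C3a. In that fit 9.55% and 12.5% of all genes were called. Without C3a replicate 1 the list had 1 and 3 calls, where 11.2% and 11.4% of all genes were called. Leaving out any 1 library gave 0 to 2 and 0 to 3. Spi1, the gene of PU.1, gave 0.15 (adjusted p = 0.572), and -0.06 without C3a replicate 2; it was chosen for the promoter motif above, after its values were seen.

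In the pathway annotation that the authors deposited, 81 genes carry the term for Fc gamma receptor-mediated phagocytosis, a list taken up after seeing the data. Of the 79 tested, 1 was higher and 3 lower for C3a against oxy-Hb, with a median of -0.03, where 3.94% of all genes were called. For C3a against C3aRA, 2 were higher and 5 lower, with a median of -0.06, where 6.19% of all genes were called. None was called for C3aRA against oxy-Hb. Fcgr1 was the gene called higher in the first comparison, and in the second it was joined by Crk, an adaptor (0.40, adjusted p = 0.0320). Myo10, an unconventional myosin of filopodia, was lower with C3a in both, at -0.69 and -0.59 (adjusted p = 0.0275 and 0.0409). With C3a replicate 2 left out, 4 were higher and 5 lower in the first comparison, 6 and 9 in the second, and 1 higher for C3aRA against oxy-Hb. The shares of all genes called were then 9.55%, 12.5% and 3.25% in the same order.

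**Figure D5:**
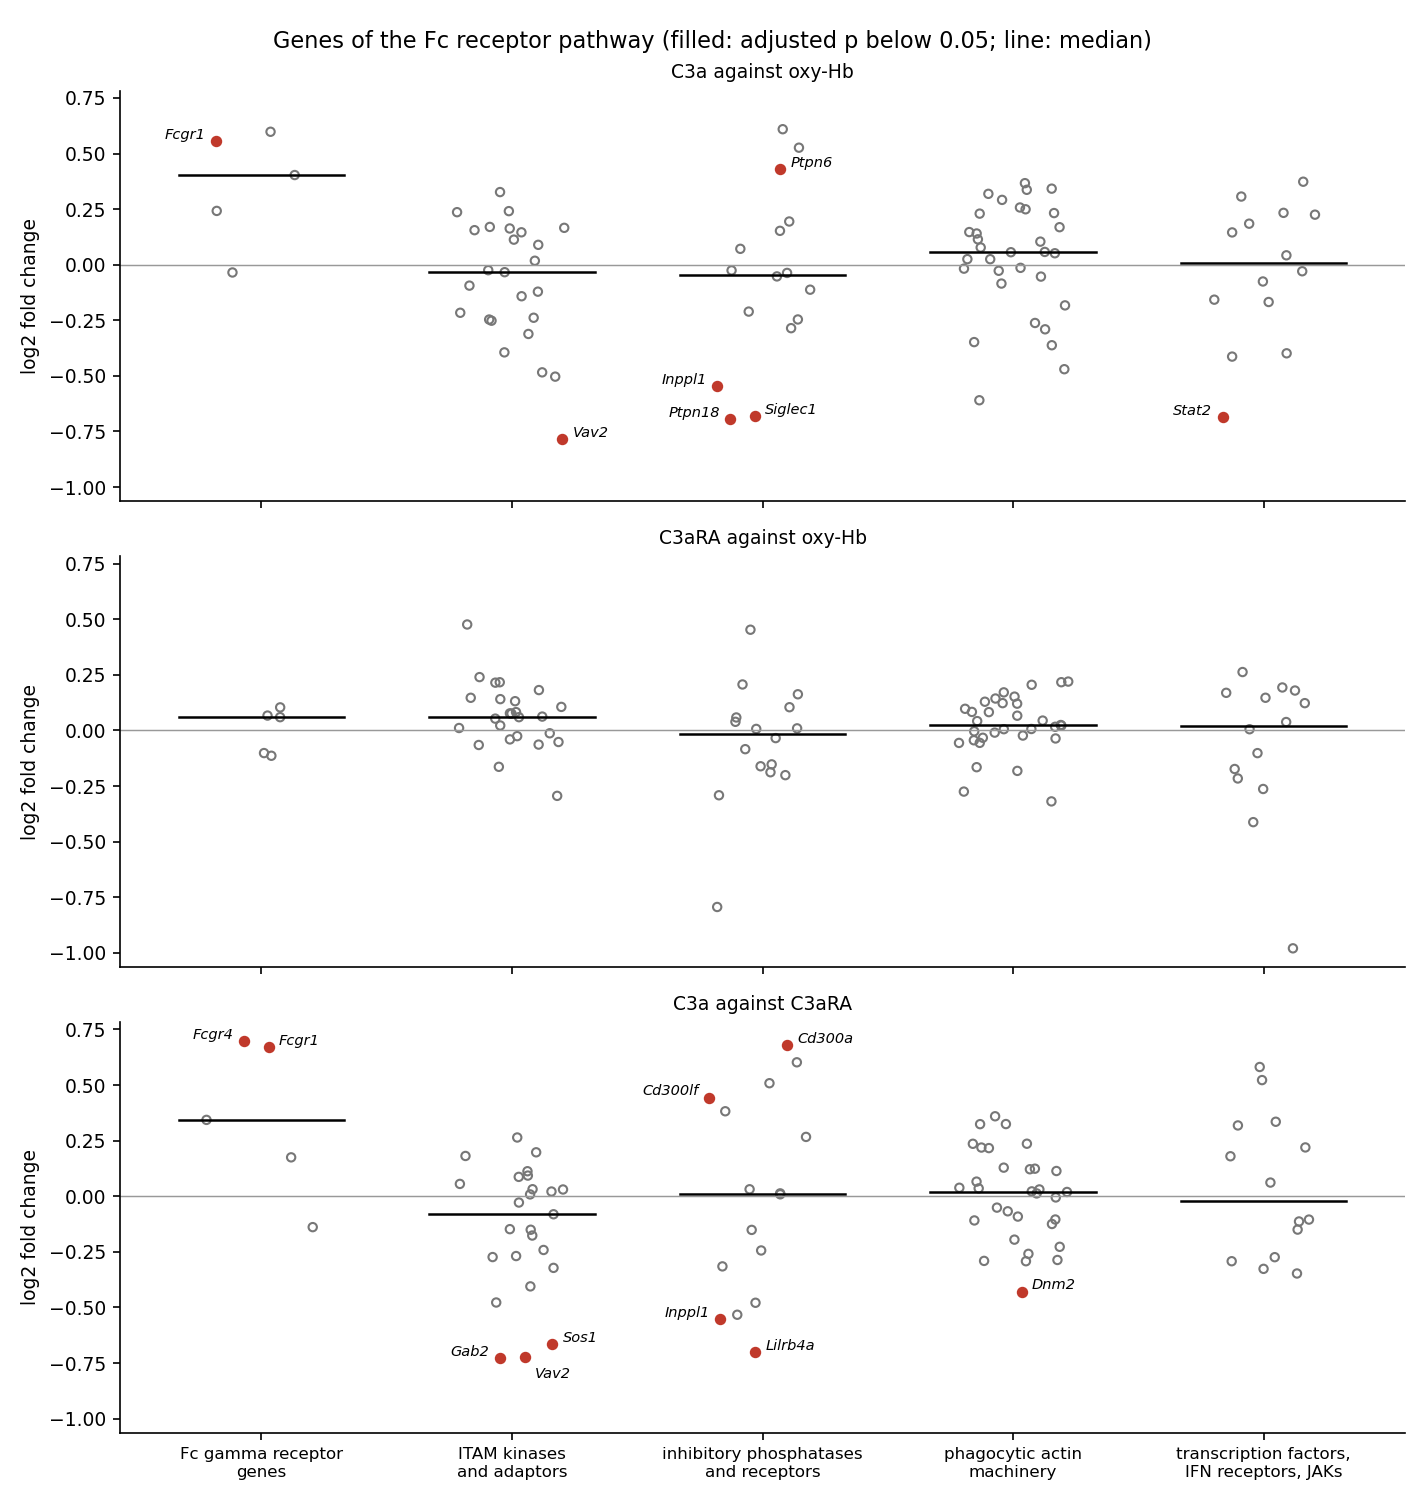
Log2 fold change of each tested gene (points) in the receptor genes and 4 lists of their pathway, for the 3 comparisons; lines are medians and filled, named points passed an adjusted p of 0.05. The receptor genes have medians of 0.40 and 0.34 in the upper and lower panels, which were 0.13 and 0.07 without C3a replicate 2, and the ITAM kinases and adaptors -0.03 and -0.08.

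Single markers of 2 cell classes passed in 1 of the 2 comparisons that called Fcgr1, and none passed in both. Among the 12 microglia markers, Itgam, an integrin chain of the complement receptor CR3, was higher with C3a than with oxy-Hb alone (0.69, adjusted p = 0.0498), and Trem2, a lipid-sensing receptor, was higher than with C3aRA (0.44, adjusted p = 0.0495). Each was the only call of the list in its comparison, 8.3% of it, beside 3.94% and 6.19% of all genes. Both passed again without C3a replicate 2, at 0.38 and 0.28. The list then had 2 and 3 calls, where 9.55% and 12.5% of all genes were called. The 7 neutrophil markers summed to 1.94 to 3.37 CPM with C3a, 0.58 to 1.55 CPM with C3aRA and 0.26 to 1.10 CPM with oxy-Hb alone, and 4 of the 7 had rows. The sum was higher in every C3a library than in any other library, and 1 of the 4 passed the count filter. S100a8, the neutrophil marker that passed the filter, was at 2.33 ± 0.822 CPM with C3a and 0.496 ± 0.223 CPM with oxy-Hb alone (2.21, adjusted p = 0.0416), and it did not pass without C3a replicate 2 (1.87, adjusted p = 0.0543). The part of these markers in the result for Fcgr1 was not tested.

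The genes nearest to each member in pattern were found among the 10107 genes that averaged 5 CPM or more, by the root mean square difference of log2 CPM, centred per gene, over the 9 libraries. For Fcgr1 they were Arl11, Srxn1 and Arpp19, at differences of 0.0596, 0.0648 and 0.0715. For Fcgr3 the nearest was Myl6 at 0.0381 and for Fcer1g Atp6v0b at 0.0409. For Fcgr4 they were Tfpt at 0.127, Gm17745 at 0.127 and Mmp12 at 0.128, and for Fcgr2b the closest was Nop53 at 0.0503. Fcgr4 had the fewest counts of the 5 genes and the largest SD over the 9 libraries (0.364). The difference is not scaled for either, so its larger values do not show a distinct pattern. Rnh1 and Laptm4a came next for Fcgr3, Rpl8 and Hsd17b10 for Fcer1g, and Rfxank and Uckl1 for Fcgr2b. None of the 5 receptor genes was among the 3 nearest of another. C3a replicate 2 was the largest departure from the gene's mean in each of Fcgr1, Fcgr3, Fcgr4 and Fcer1g, at 0.67, 0.68, 0.75 and 0.61 on the log2 scale. Over the 8 libraries without it, a search added after seeing the data gave Eif4g2 at 0.0290 for Fcgr1, Rfxap at 0.0256 for Fcgr3, Sdc4 at 0.0651 for Fcgr4, Eya3 at 0.0301 for Fcer1g and Vars at 0.0374 for Fcgr2b. Fcgr2b shared 1 of its 3 neighbours with the search over 9 libraries, Uckl1, and the other 4 genes shared 0.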

How the data were processed

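RNA-seq of BV2 cells was analysed in 9 of the 12 samples of the series; groups and replicate numbers came from the labels. The authors deposited raw read counts per Ensembl gene in 2 tables that share the oxy-Hb libraries (0 counts differed), with their own log2 fold changes and p-values. Per the submitters' processing notes, the builds were GRCm38 and mm10. Which aligner, counter and test the authors used is not given in the sources used here. Library totals, and the floor they set, stand with the results.

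Counts were fitted with edgeR 4.0.16 in R 4.3.3 (filterByExpr with a minimum count of 10, TMM, robust quasi-likelihood test, adjusted p below 0.05), with 1 coefficient per group and 3 contrasts. The biological coefficient of variation was 15.8%. Alternatives were other scalings and filters, DESeq2 1.42.0, limma-voom (limma 3.58.1) with and without quality weights, fits of 2 groups, a replicate block, leaving out each library, a length and GC correction, and summed Fcgr2b and Fcgr3. The members, the gene lists and the tests were chosen with earlier results of these data known. From each list described, every called gene up to 4 per comparison by lowest p was named, or up to 2 where none was called. Pattern neighbours were computed from log2 CPM with a prior count of 2. Coordinates and transcripts are from GENCODE for GRCm38, where 22908 of the identifiers were found, and promoters are from RefSeq. Some genes that the rule took are withheld and not reported here.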

Additional observations from a re-analysis of the deposited data

How the results depend on the processing

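Of 334 member log2 fold changes recomputed under an alternative, 294 kept their direction and their side of the threshold, 21 lost a call, 6 gained one and 13 changed sign, none of those 13 with an adjusted p below 0.05. The number of members called for C3a against oxy-Hb was 1, and 0 under total count scaling and in the fit of the 2 groups alone, and 2 without a filter on low counts and by DESeq2; leaving out 1 library gave 0 to 1. For C3a against C3aRA it was 0 in the fit of the 2 groups alone, 3 by limma-voom with library quality weights, and 0 to 2 with 1 library left out, against 2 with all. For C3aRA against oxy-Hb it was 0 in every fit. The cause of these differences was not tested.

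With 1 library left out, Fcer1g ranged from -0.0626 to 0.3877 for C3a against oxy-Hb and from -0.1295 to 0.3167 for C3a against C3aRA, and Fcgr2b from -0.211 to 0.1016 and from -0.3153 to 0.0063 in the same comparisons. Fcgr3 for C3aRA against oxy-Hb was -0.0029 under total count scaling. Fcer1g for C3a against oxy-Hb was -0.0342 with quality weights, -0.0626 without C3a replicate 2 and -0.0661 in the fit of 2 groups without that library. Fcer1g for C3a against C3aRA was -0.0756, -0.1295 and -0.132 in the same fits, and -0.1129 with the length and GC correction without that library. Fcgr2b for C3a against oxy-Hb was 0.0019 without C3a replicate 1, 0.1016 without C3a replicate 3, 0.0225 without oxy-Hb replicate 1 and 0.022 with the length and GC correction, and for C3a against C3aRA it was 0.0063 without C3a replicate 3. The fits that combine a change with the loss of C3a replicate 2 were chosen after seeing the data. Where an arm kept 2 libraries, the other groups supplied part of the estimate of spread.

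From raw counts without length, the ratio of activating receptors to Fcgr2b averaged 2.13 with C3a, 1.43 with C3aRA and 1.53 with oxy-Hb alone, a change of scale that follows from leaving out the lengths. Deviations from the group means correlated at -0.0405 to 0.17 between same-numbered libraries of different groups, and at -0.142 to 0.0813 between different-numbered ones. These weak correlations do not settle whether the replicate numbers pair the libraries. The replicate block gave 1, 0 and 2 members called, as without it, and 835, 0 and 1210 genes called, against 558, 0 and 876. Called genes for C3a against oxy-Hb split into 128 higher and 430 lower, into 34 and 663 under total count scaling and into 616 and 332 with the length and GC correction; for C3a against C3aRA the split was 406 and 470, and 648 and 432 with that correction. Alternatives moved the count of all genes called between 54 and 1693 for C3a against oxy-Hb, between 53 and 1959 for C3a against C3aRA and between 0 and 1114 for C3aRA against oxy-Hb. Fcgr4, the gene with the fewest counts of the 5, had the widest interval for C3a against oxy-Hb, 0.22 to 0.98.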
